A study of Mus musculus with 2 samples.

Results

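Interferon-high macrophages are the macrophages of regenerating mouse muscle that carried the most RNA of 5 interferon-induced genes. They were taken from single-cell RNA-seq of sorted cells from injured tibialis anterior muscle, 1 library of wild-type (WT) mice and 1 of mice with a conditional knockout of Setdb1 (Setdb1-cKO, here KO), both aged 8 to 12 weeks. Setdb1 encodes a histone H3 lysine 9 methyltransferase that silences retroelements and some genes. The injury, the day after it, the Cre driver, the number of animals behind each library and the cells that carry the deletion are not stated in the labels. With 1 library per genotype there is no replicate, so nothing below was tested, and a KO to WT difference compares these 2 libraries only. All intervals in square brackets are 95% intervals that cover counting error alone.

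A macrophage was a barcode with at least 5000 UMIs (unique molecular identifiers, each counting 1 captured RNA molecule) and at most 10% mitochondrial UMIs. It also held at least 3 UMIs of Csf1r, Adgre1 and Fcgr1 together, at most 1 of Pdgfra, Cdh5 and Cdh15, and at most 4 of Mki67 and Top2a. Of the 13508 barcodes within the UMI and mitochondrial limits, 7365 met these marker limits (3503 WT, 3862 KO). The interferon-high cells are the top 12% of them, both libraries pooled, by a score: the UMIs of Ifit2, Ifit3, Rsad2, Mx1 and Cmpk2 per 10000 UMIs of the cell. That gave 884 cells, 598 WT and 286 KO. The lowest member scored 14.47 and the highest macrophage outside 14.41, and 89 members and 104 other macrophages lay within 10% of the cut, so the class is the upper range of a continuous score and not a separate type. The score chose the cells, and every difference between members and other macrophages below is therefore a description.

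Type I interferons, which many cells secrete on sensing foreign or misplaced nucleic acids, bind the Ifnar1 and Ifnar2 receptor, whose kinases Jak1 and Tyk2 activate the complex ISGF3. This complex, with Stat2 and Irf9 among its subunits, binds a DNA element with repeated GAAA blocks and switches on interferon-stimulated genes. Interferon-gamma, a product of lymphocytes, signals through Ifngr1 and Ifngr2 and favours genes with a different element. In injured muscle, Ly6c-high monocytes enter from the blood and turn into macrophages that first clear debris and later support repair.

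Members carried the general macrophage genes at levels near those of other macrophages. Of 14 such genes, 1 stood at least 1.5-fold higher in members than in other macrophages in each library, against 5.22% of all genes compared in WT and 4.99% in KO. In both it was Fcgr1, the high-affinity IgG receptor, which also served in the marker limits. Cd14, a coreceptor for bacterial lipopolysaccharide, was at least 1.5-fold lower in KO members, at 311 against 574 CPM (UMIs of a gene per 1000000 summed UMIs of the group). C1qa, a complement component made by tissue macrophages, was at 6612 CPM in WT members and 6159 CPM in other WT macrophages, and at 6663 and 5985 CPM in KO. Markers of lymphocytes were near 0: Cd3e had no UMI in members of either library, and of 11 T and NK cell genes none passed the level needed for comparison. Siglech, which marks plasmacytoid dendritic cells, stood at 1.09 CPM in WT and 0.301 CPM in KO members. Of 3 compared genes of that cell's list, 1 was higher in members in both libraries, Bst2. It made up most of the list's sum in members. Without the 3 members of each library with most of its UMIs, Bst2 stood at 2012.5 CPM in WT and 1446.9 CPM in KO members. That list summed to 2199 CPM in WT members and 1316 in other WT macrophages, and to 1689 and 937 in KO. S100a9, of neutrophils, was at 0.820 and 0.301 CPM, while the neutrophil list summed to 59.5 and 74.5 CPM in WT and KO members. Of 2 B cell genes compared, 1 was higher in KO members. Of 2 dendritic cell genes, 1 was higher in WT and 1 lower in KO members. Of 13 immediate early and heat shock genes that tissue dissociation can induce, 0 differed by 1.5-fold between members and other macrophages in either library. Median depth was 11059.5 UMIs in WT and 11005 in KO members, against 11650 and 11613 in the other macrophages. The libraries shared 9 barcodes of 5000 UMIs or more, 3 of them macrophages and 0 of them members.

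In the WT library 17.1% [15.8 to 18.4] of macrophages were members, and in the KO library 7.41% [6.60 to 8.28], a KO to WT ratio of 0.434 [0.375 to 0.5003]. The KO library lay lower along the whole score. The median macrophage scored 2.55 in WT and 0.892 in KO, and the 90th percentile was 23.4 and 10.6. The ratio of the shares fell from 0.724 [0.680 to 0.770] at a score of at least 1 to 0.514 at 5, 0.391 [0.310 to 0.491] at 30 and 0.280 [0.171 to 0.443] at 60, where 81 WT and 25 KO cells remained. Within the class the score differed little: its median was 26.3 in WT and 25.01 in KO members. The libraries also differed in free RNA. In barcodes with 20 to 100 UMIs, taken as ambient RNA, the 5 rule genes summed to 577 CPM in WT and 251 CPM in KO, against 827 and 388 CPM in all macrophages. The part of ambient RNA in the shares was not tested. Of all macrophages, 852 WT and 1515 KO cells scored 0.

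**Figure D1:**
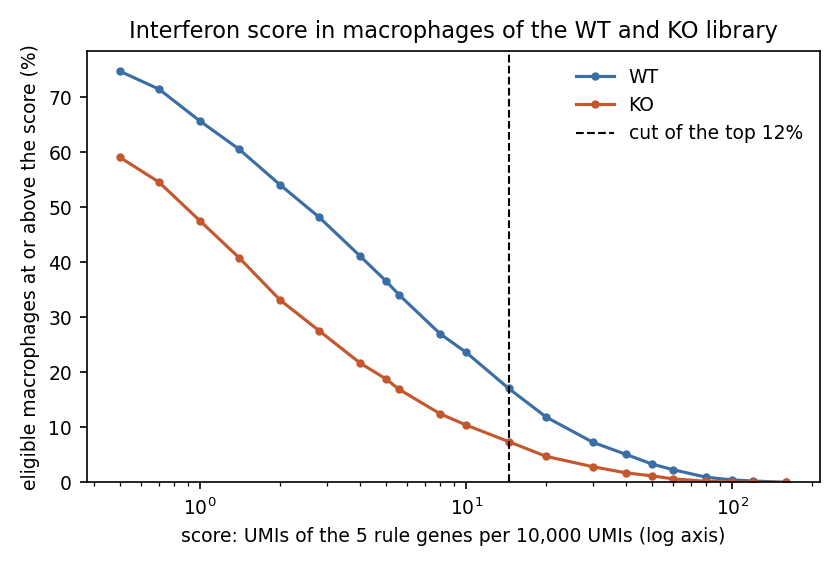
Share of macrophages (%) at or above each interferon score in the WT (blue) and KO (orange) library, on a log axis of the score; the dashed line is the cut of the pooled top 12%. The KO curve lies under the WT curve throughout, at 7.41% against 17.1% at the cut.

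The 5 rule genes chose the cells and are given as a description. Ifit2 and Ifit3 (chromosome 19, 34550694 to 34576419 and 34583531 to 34588731, GRCm38, plus strand) encode proteins that bind viral RNA. Ifit2 stood at 811 CPM in WT members, 77.1 in other WT macrophages, 788 in KO members and 41.7 in other KO macrophages. Ifit3 stood at 1102, 107, 854 and 53.8 CPM in the same order. Rsad2 (viperin) makes a chain-terminating nucleotide, and Cmpk2, its neighbour, is a mitochondrial nucleotide kinase; they lie on chromosome 12 at 26442746 to 26456452 and 26469204 to 26479837. Rsad2 was at 1117 and 79.7 CPM in WT and 1127 and 61.4 CPM in KO members and other macrophages, and Cmpk2 at 165 and 11.1 CPM and at 152 and 7.20 CPM. Mx1 (chromosome 16, 97447035 to 97462907), a dynamin-like GTPase, was at 306 and 30.4 CPM in WT and 239 and 20.2 CPM in KO. All 5 genes had a UMI in 315 WT and 138 KO members, and at least 4 in another 195 and 86.

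The 5 genes also went together when cells were chosen by some of them and the others read out. In the top 12% by Ifit2 and Ifit3 alone, Rsad2 was 7.33-fold [7.05 to 7.61] higher than in the remaining WT macrophages and 9.67-fold [9.20 to 10.2] higher in KO. In the same cells Mx1 was 9.26-fold and 11.6-fold, and Cmpk2 12.6-fold and 20.1-fold, higher. Of the 884 members, 733 were also chosen by Ifit2 and Ifit3 alone and 692 by Rsad2, Mx1 and Cmpk2 alone. Both of these scores are parts of the score that chose the members, so a large overlap is built in. These values are a description too.

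Genes beyond the rule also differed. Of 6971 genes with at least 10 CPM over all macrophages, 364 (5.22%) were at least 1.5-fold higher in WT members than in other WT macrophages and 257 (3.69%) at least 1.5-fold lower. In the KO library 348 (4.99%) were higher and 402 (5.77%) lower, and 289 (4.15%) were higher and 135 (1.94%) lower in both libraries. The higher counts include the 5 rule genes; without them they were 359, 343 and 284. The split of higher against lower genes depends on the scaling: by median-of-ratios size factors in place of total UMIs it was 433 to 171 in WT and 438 to 291 in KO. Among antiviral effector genes, 37 of 38 passed 1.5-fold in WT and 38 of 38 in KO, with median ratios of 3.01 and 3.48, while the median of all genes compared was 0.946 and 0.934. The level needed was read over all macrophages, members included, which lets in genes that are high only in members. With that level required in other macrophages alone, 36 of 37 antiviral genes passed in WT and 37 of 37 in KO, and 339 and 323 of all genes were higher. The genes of this list are known interferon targets, and it, like the other lists, was chosen with results of these data in view.

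By the rule for named genes, the 20 genes outside the rule with the highest ratio in both libraries began with Ifit1, an RNA-cap-binding relative of Ifit2. Ifit1 stood at 298 CPM in WT members, 26.3 in other WT macrophages, 288 in KO members and 18.1 in other KO macrophages. Isg15, a ubiquitin-like protein that is conjugated to other proteins and also secreted, stood at 2652, 462, 1913 and 259 CPM in the same order, 5.74-fold [5.63 to 5.86] higher in WT members and 7.40-fold [7.17 to 7.63] in KO members. Both genes were higher in members than in other macrophages in each library, and Isg15 was lower in KO than in WT in members as in other cells. The near-identical Ifit3b was at 256, 23.8, 163 and 10.8 CPM, a split between it and Ifit3 that depends on how shared reads were counted. Isg20, an RNA exonuclease, Oasl1 and Herc6, relatives of antiviral 2′-5′-oligoadenylate synthetases and of the ISG15 ligases, and Slfn1, Ifi44, Phf11a and Phf11d were also among the 20, with WT ratios from 4.36 to 5.57.

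Stretches of the promoters of 7 such genes are shown because the letters that ISGF3 and related factors are known to bind were more frequent before genes higher in members than before other genes. They were picked among genes that hold a match. Sequences are RefSeq promoters of GRCm38.p6, on the strand of the gene, 5′ to 3′; capitals mark every match to GAAANNGAAA or its reverse complement TTTCNNTTTC.
Ifit3 (chr19:34583368-34583441, plus strand): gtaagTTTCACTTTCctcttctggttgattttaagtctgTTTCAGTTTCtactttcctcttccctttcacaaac
Ifit1 (chr19:34640779-34640838, plus strand): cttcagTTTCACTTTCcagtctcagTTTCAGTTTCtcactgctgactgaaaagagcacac
Rsad2 (chr12:26456538-26456597, minus strand): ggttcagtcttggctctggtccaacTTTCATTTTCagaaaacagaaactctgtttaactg
Isg15 (chr4:156200850-156200909, minus strand): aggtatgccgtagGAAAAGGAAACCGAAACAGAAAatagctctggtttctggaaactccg
Gbp2 (chr3:142620579-142620638, plus strand): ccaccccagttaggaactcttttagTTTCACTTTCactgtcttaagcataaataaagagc
Gbp5 (chr3:142496744-142496803, plus strand): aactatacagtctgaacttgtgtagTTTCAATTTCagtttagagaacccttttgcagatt
Cxcl10 (chr5:92349068-92349127, minus strand): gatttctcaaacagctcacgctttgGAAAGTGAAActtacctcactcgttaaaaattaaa
Each window lies before the start that RefSeq gives; in GENCODE M21 Gbp5 starts further upstream (142493978) and Gbp2 starts inside the window (142620602). In Isg15 3 matches overlap in 1 run, and Ifit3 and Ifit1 hold 2 separate ones. Of the other genes searched, Gbp3 also holds a match before its start, Ifih1 and Ddx58 only one reaching past it, and Ifit2, Cmpk2, Ifi47 and Oasl2 none.

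Over 300-base windows, 250 before and 50 after the start, GAAANNGAAA on either strand was found in 67 of the 231 genes with an entry that were higher in members in both libraries (29.0%). It was found in 187 of 5340 other compared genes (3.50%) and in 1079 of 27025 genes of the table (3.99%). The higher set includes the rule genes, of which 2 of the 4 with an entry held the motif. It also includes genes that reached 10 CPM only through members. Because interferon-induced genes chose the cells, the difference in shares is a description and no test of what drives the genes. Among the lists, 10 of 11 GBP and IRG genes, 15 of 35 antiviral effectors, 4 of 10 nucleic acid sensors and 5 of 17 class I presentation genes held it. Chemokines held it in 1 of 10 cases, Cxcl10, and class II presentation genes in 0 of 6. The palindromic Stat element TTCNNNGAA, whose letters can share bases with the first motif, was in 36 of the 231 genes (15.6%) and in 405 of the 5340 (7.58%), and in 6 of 11 GBP and IRG genes. A match is a string of letters and not a measured binding site.

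Genes that pass on the interferon signal divided into those that followed the score and those that did not. The receptor subunits Ifnar1 and Ifnar2 stood at 55.6 and 213 CPM in WT members and at 52.5 and 213 CPM in other WT macrophages, and at 69.1 and 231 against 73.9 and 207 CPM in KO. Of 8 receptor and kinase genes, 1 passed 1.5-fold in WT, Jak2 at 29.0 against 16.2 CPM, and 0 in KO. Of the transcription factors, Stat2 was at 152 CPM in WT members against 45.5 in other WT macrophages and at 168 against 37.2 in KO. Irf7, the factor that carries the second wave of interferon production, was at 1208 against 513 CPM in WT and at 819 against 275 in KO. Irf9, the DNA-binding subunit of ISGF3, was 1.24-fold higher in WT and 1.51-fold in KO members. Irf3, which starts the first wave from a standing pool of protein, Irf5 and Irf8 had ratios from 0.877 to 1.20 in the libraries. Of 9 such factors 5 passed 1.5-fold in WT and 5 in KO, and Irf2 had ratios of 1.60 in WT and 1.48 in KO.

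Sensors of nucleic acids were higher in members in 9 of 14 cases in WT and 10 of 14 in KO, with median ratios of 2.87 and 3.77. Ddx58 (RIG-I), a sensor of RNA ends, was at 153 and 45.2 CPM in WT and at 181 and 45.1 CPM in KO members and other macrophages. Ifih1 (MDA5), a sensor of long double-stranded RNA, was at 141 and 37.5 CPM in WT and at 202 and 42.5 CPM in KO. Zbp1, which binds left-handed nucleic acids, was at 352 and 111 CPM and at 298 and 67.8 CPM. Ifi204, of the DNA-binding HIN-200 family, was at 611 and 210 CPM and at 684 and 174 CPM. The DNA sensor Cgas stood at 23.7 and 13.8 CPM in WT and 34.3 and 17.0 in KO, and its partner Sting1 at 62.8 and 51.9 and at 64.3 and 55.9 CPM. Tlr7, which reads RNA in endosomes, had ratios of 1.402 in WT and 1.43 in KO, inside the 1.5-fold limit, and Ifi205, also of the HIN-200 family, 7.51 and 8.85.

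Interferon RNA itself was scarce. Ifnb1 had 26 UMIs in the 598 WT members and 27 in the 2905 other WT macrophages, and 6 and 26 UMIs in KO, so its level was 4.93-fold [2.76 to 8.77] higher in WT members and 3.15-fold [1.06 to 7.82] in KO members. These UMIs lay in few cells. The 90th percentile of interferon ligand UMIs was 0 in members of both libraries, and the highest member held 9.42 per 10000 UMIs in WT and 3.23 in KO. The intervals do not cover such unevenness. No UMI of any of the 12 Ifna genes listed was seen in members of either library. A count of 0 leaves room for up to 3 UMIs over all members of a library. Ifng had 0 UMIs in WT and 1 in KO members, against 269 and 154 in all barcodes of 5000 UMIs or more; the other macrophages held 23 and 14 of these. The feedback genes were mixed. Usp18, which blocks the type I receptor, was at 213 and 26.3 CPM in WT and at 178 and 20.4 CPM in KO members and other macrophages. Socs1, an inhibitor of Jak kinases, was at 48.9 and 13.3 CPM in WT but 23.4 and 12.0 CPM in KO. Socs3, its relative on the IL-6 pathway, was at 85.2 and 82.4 CPM and at 126 and 152 CPM. Of 8 feedback genes 2, Usp18 and Socs1, were higher in members in both libraries.

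The guanylate-binding proteins (GBP) and immunity-related GTPases (IRG) attack vacuoles that hold intracellular microbes. The 10 compared were higher in members in both libraries, with median ratios of 3.63 in WT and 5.17 in KO. Of these, 8 reached 10 CPM in other macrophages alone; the rest were compared through their level in members. Iigp1 was at 162 and 24.1 CPM in WT and 149.95 and 13.1 CPM in KO members and other macrophages, Gbp5 at 71.1 and 10.9 and at 65.8 and 7.84, and Ifi47 at 340.1 and 64.4 and at 313 and 44.1 CPM. Another 6 genes of the list, such as Tgtp1 and its near-identical copy Tgtp2, did not reach 10 CPM over all macrophages and were not compared. Targets that lean to interferon-gamma gave a less even picture. Of 8 compared, 5 were at least 1.5-fold higher in WT members and 4 in KO members, and 0 were lower. Their median ratios were 2.29 and 1.69. Ciita, the master regulator of class II genes, stood at 24.6 and 34.4 CPM in WT and 31.6 and 31.6 in KO. Cxcl9, which interferon-gamma induces strongly, was at 186 and 61.9 CPM in WT and 141 and 33.9 in KO, but 3 members held 38.6% of its WT and 83.8% of its KO member UMIs. Without the 3 members of each library that held most, Cxcl9 was at 115 CPM in WT and 23.1 CPM in KO members, the latter below the 33.9 CPM of the other KO macrophages.

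**Figure D2:**
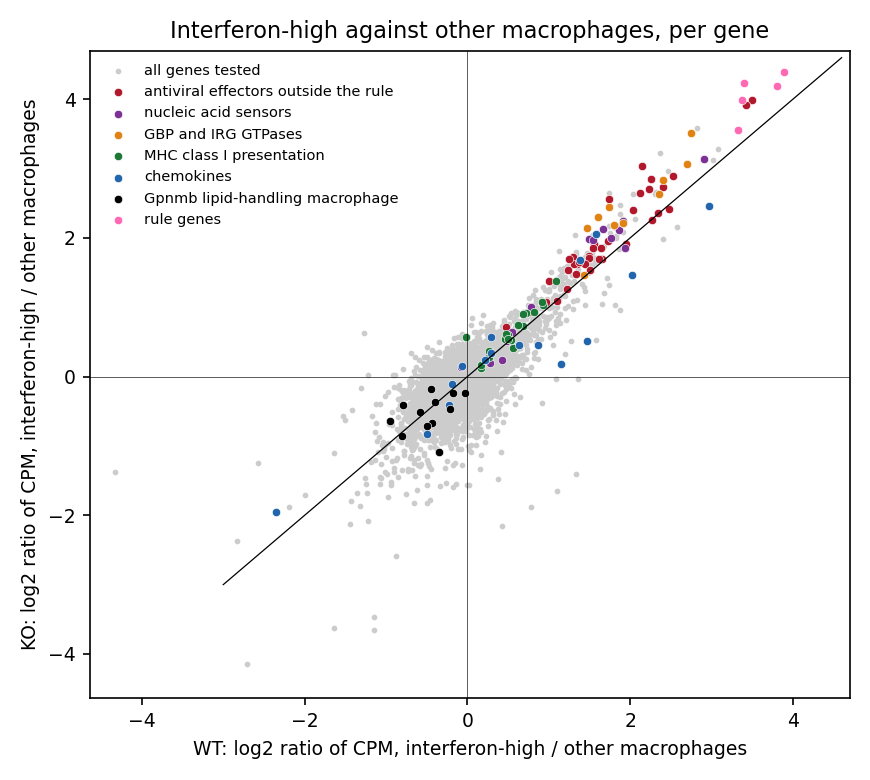
Each point is a gene: log2 ratio of CPM in interferon-high over other macrophages, WT on the x axis and KO on the y axis, with gene lists coloured, the rule genes in pink, and the line of equality. Antiviral and GBP genes and 9 of the 14 sensors lie past 1.5-fold in WT, and most genes of these lists lie above the line; the chemokines Cxcl10, Ccl2, Ccl7 and Ccl12 lie below it.

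Antigen presentation by class I, which displays peptides of the cell's own proteins, was modestly higher. Of 19 genes, 8 passed 1.5-fold in WT and 10 in KO, with medians of 1.44 and 1.52. The peptide transporter Tap1 was at 149 and 70.3 CPM in WT and at 136 and 52.1 CPM in KO, and the immunoproteasome subunit Psmb9 at 335 and 177 and at 259.9 and 123 CPM. The heavy chain H2-K1 and the light chain B2m differed by 1.20-fold and 1.12-fold in WT and by 1.22-fold and 1.13-fold in KO. Of 7 class II genes 0 passed 1.5-fold in either library. H2-Aa was 0.887 of the level of other macrophages in WT members and 1.07 in KO members.

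Chemokines draw leukocytes in, and 4 that were higher in WT members, Cxcl10, Ccl2, Ccl7 and Ccl12, were less so in KO members. Not all chemokines went this way. Cxcl9, given above, had a larger ratio in KO than in WT. Its KO ratio was 4.15, and 0.682 without the 3 members that held most of its UMIs. Of 16 compared, 8 were higher and 1 lower in WT members, and 4 were higher and 2 lower in KO members. The list as a whole differed little between libraries, with median ratios of 1.39 in WT and 1.32 in KO and with 11 and 12 genes above 1. Cxcl10, the ligand of Cxcr3 on T and NK cells, stood at 1462 CPM in WT members and 187 in other WT macrophages, and at 1088 and 197 in KO. Ccl2, the main attractant of Ccr2+ monocytes, stood at 660 and 297 CPM in WT and at 354 and 313 CPM in KO. Ccl7, also a ligand of Ccr2, stood at 611 and 221 CPM and at 407 and 285 CPM, and Ccl12, a further one, at 1017 and 251 and at 832 and 300.4 CPM. These 4 genes were higher in members than in other macrophages by 7.84, 2.22, 2.77 and 4.06-fold in WT and by 5.51, 1.13, 1.43 and 2.77-fold in KO. The difference of log2 ratios, KO minus WT, was -0.97 [-1.07 to -0.87] for Ccl2, -0.96 [-1.05 to -0.86] for Ccl7, -0.55 [-0.62 to -0.48] for Ccl12 and -0.51 [-0.58 to -0.44] for Cxcl10, while for Isg15 it was 0.36 [0.31 to 0.42]. Chemokine RNA was uneven over cells: 3 members held 11.9% of Ccl2 UMIs in WT and 22.7% in KO, and 12.9% and 23.5% of those of Ccl7. Without them Ccl2 was at 586 and 277 CPM in WT and KO members, and the KO level then lay under that of other KO macrophages. Of the neutrophil attractants, Cxcl3 was lower in members in both libraries, at 4.65 and 23.8 CPM in WT and 12.3 and 47.7 CPM in KO. Cxcl1 stood at 50.7 and 71.3 CPM in WT, inside the 1.5-fold limit, and at 120 and 213 CPM in KO, past it. Cxcl2 had ratios of 0.852 in WT and 0.753 in KO. Ambient levels of Ccl2 were 478 CPM in WT and 505 CPM in KO, of Cxcl1 350 and 462, and their part in the values was not tested.

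Among cytokines, Il15, which sustains NK and memory T cells, was at 55.1 and 21.8 CPM in WT and at 53.2 and 15.2 CPM in KO. Il18 was at 124 and 68.8 and at 114 and 69.7 CPM, and its processing enzyme Casp1 at 86.0 and 53.9 and at 88.6 and 51.6 CPM. Il1b was not among them: it stood at 261 and 312 CPM in WT and at 268 and 449.8 CPM in KO. Of the 10 compared genes of the Il1rn and Clec4e inflammatory macrophage list, 1 was at least 1.5-fold lower in WT members and 6 in KO members, and none was higher. Of all genes compared, 3.69% were lower in WT and 5.77% in KO members, and 5.22% and 4.99% were higher. Of 10 NF-kB feedback genes 0 were higher in members and 1 was lower in each library. Of the cytokine and inflammasome list, 4 of 13 were higher in members in each library, Il15, Il18, Casp1 and Casp4, while 1 was lower in WT members and 4 in KO members, Il1a in both.

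The change along the score was gradual for some genes and steep for others. Macrophages were divided into 8 bins, from a score of 0 (852 WT, 1515 KO cells) to 60 and above (81 and 25). Irf7 was at 259, 388, 644, 773, 959, 1109, 1257 and 1528 CPM from the lowest to the highest WT bin, so most of its fold lay under the cut. Cxcl10 was at 110, 140, 221, 269, 360, 789, 1768 and 3695 CPM over the same bins, so most of its fold lay above the cut. From score 0 to the bin just below the cut, Irf7 differed by 3.70-fold in WT and 3.29-fold in KO, Oasl2 by 4.84-fold and 5.14-fold and Cxcl10 by 3.26-fold and 2.49-fold. From that bin to the highest, the same genes differed by 1.59-fold and 1.99-fold, 2.08-fold and 1.86-fold, and 10.3-fold and 6.26-fold. Usp18 was steep on both sides, with 12.5-fold and then 5.98-fold in WT. H2-K1 reached 1979 CPM under the cut in WT and was at 2071 CPM in the top bin. Cells outside the class thus already carried part of the programme, and the lists' ratios between members and other macrophages understate the range along the score.

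**Figure D3:**
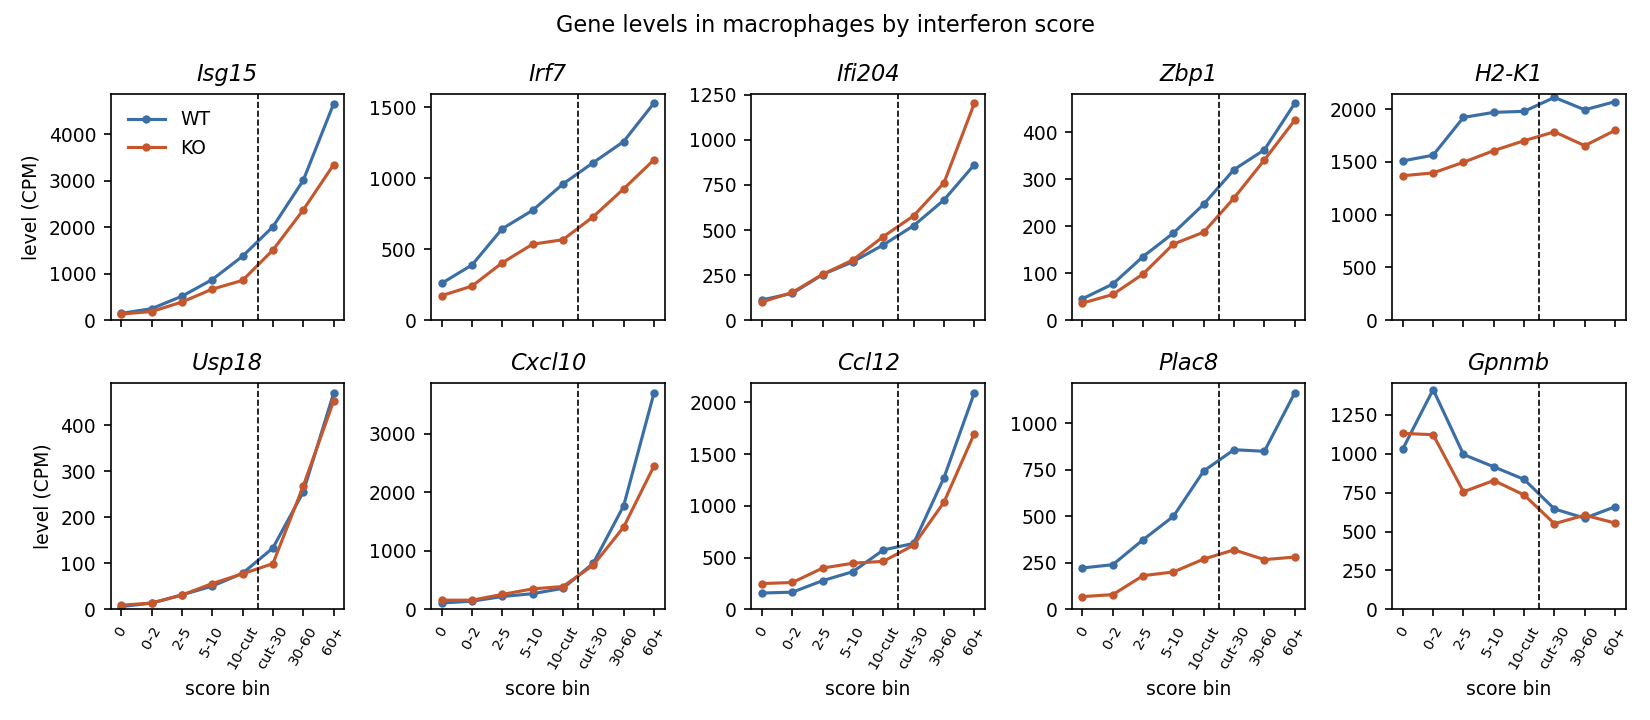
Level (CPM) of 10 genes in macrophages grouped by interferon score, WT in blue and KO in orange; the dashed line is the cut, with members to its right. In WT, Irf7 and H2-K1 climb mostly before the cut, Usp18, Cxcl10 and Ccl12 gain most CPM after it, and Gpnmb is lower in the upper bins.

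Across cells, the genes most like the score were further antiviral genes. Over the 6633 compared genes outside the rule that the naming rule admits, the rank correlation with the score was highest, taking the lower of the libraries, for Ifi204 (0.592 over 3503 WT and 0.499 over 3862 KO cells), Ifi211 (0.645 and 0.492), Isg15 (0.696 and 0.489), Ifit1 (0.590 and 0.468) and Slfn5 (0.556 and 0.468). Slfn1, Oasl2, Ifi213, Ifi209 and Xaf1 came next, down to 0.549 and 0.450. Cells of a library share its depth and ambient RNA, and these values are given as a description.

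Members were found in every macrophage state looked at, in different measure. In the WT library, 27.0% [24.6 to 29.6] of macrophages in the upper 25% of Ly6c2 and Plac8, which mark recently arrived monocytes, were members, against 11.4% [10.2 to 12.8] of the rest. In the KO library the shares were 15.1% [12.3 to 18.3] and 6.05% [5.26 to 6.92]. In the upper 25% of Gpnmb, a gene of lipid-handling macrophages, 9.96% of WT and 4.06% of KO macrophages were members, against 19.5% and 8.48% of the rest. In the upper 25% of Mrc1, F13a1 and Cbr2, genes often found in resident macrophages, the shares were 22.5% and 8.83%, against 15.7% and 6.81%. In the upper 25% of Cx3cr1 the shares were 10.7% and 5.39%, against 18.5% and 8.30% of the rest. In that of Il1rn, Clec4e and Nlrp3 they were 17.9% and 5.29%, against 16.8% and 8.22%. For this last set the upper part was thus close to the rest in WT and below it in KO. Of the 6 upper parts, that of Ly6c2 and Plac8 had the highest share and that of Gpnmb the lowest in both libraries. Of 10 compared genes of the wider inflammatory monocyte list, 6 were at least 1.5-fold higher in WT members. In KO members 4 were higher and 1 lower, and the median ratios were 1.70 in WT and 1.15 in KO. Ly6c2 and Plac8 also rose from score 0 to the bin below the cut, by 3.24-fold and 3.34-fold in WT, so they are not independent of the score. Whether members arrived recently was not tested.

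The lower share of members in the KO library was seen within each state. Ly6c2-rich and Plac8-rich cells were themselves fewer in KO, 14.9% of its macrophages against 36.1% in WT. Within them the KO to WT ratio of the member share was 0.560 [0.437 to 0.711] and in the rest 0.529 [0.437 to 0.639]. Over the 6 marker sets and both parts of each, the ratio ranged from 0.295 [0.213 to 0.405], in the upper 25% of Il1rn, Clec4e and Nlrp3, to 0.560. The upper 25% was taken over both libraries pooled, and its cells are not replicates.

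**Figure D4:**
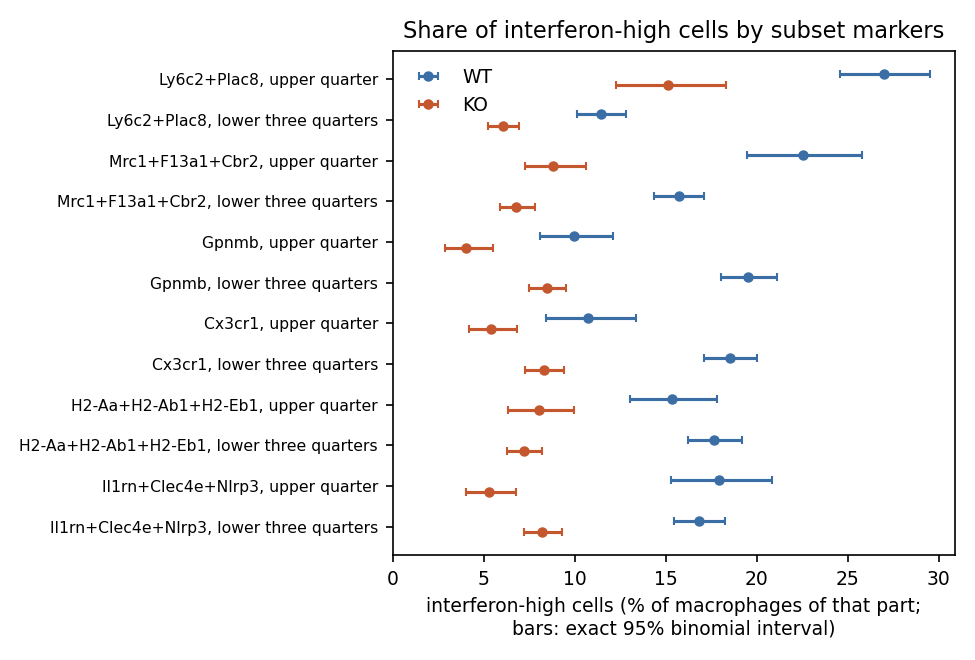
Share of macrophages that are interferon-high (%, exact 95% binomial intervals for counting error) in the upper 25% of all macrophages and the rest, by the level of 6 marker sets, WT in blue and KO in orange. The KO share lies below the WT share in all 12 parts.

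The makeup of members differed too. Of WT members 57.2% [53.1 to 61.2] were in the Ly6c2 and Plac8 upper 25%, of KO members 30.4% [25.1 to 36.1]. In the Mrc1, F13a1 and Cbr2 upper 25% were 26.3% [22.8 to 30.0] of WT and 35.3% [29.8 to 41.2] of KO members, and in that of Gpnmb 15.1% and 13.3%. The states overlapped, since 116 WT and 38 KO members were in both the Ly6c2 and the Mrc1 upper 25%. Gene levels within members varied with state. Antiviral effectors outside the rule summed to 21654 CPM in the 342 Ly6c2-rich WT members, 18872 in the 157 Mrc1-rich ones and 13441 in the 90 Gpnmb-rich ones, at median scores of 25.4, 26.8 and 27.6. In KO the sums were 18722, 14966 and 10999 CPM over 87, 101 and 38 cells. Ccl8, a monocyte attractant, was at 6224 CPM in Mrc1-rich and 1338 in Gpnmb-rich WT members, and at 4985 and 1547 in KO. Cells of like score thus differed in the rest of the programme.

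Between KO and WT members, 384 of 6971 genes (5.51%) were at least 1.5-fold higher in KO and 142 (2.04%) at least 1.5-fold lower. In the other macrophages 196 (2.81%) were higher and 63 (0.904%) lower. By size factors the split was 268 to 198 in members and 115 to 95 in the other macrophages. The KO members hold fewer UMIs, and the median gene was 1.05-fold higher in KO members and 1.07-fold higher in other KO macrophages. Of 38 antiviral effectors, 4 were at least 1.5-fold lower in KO members, namely Ifit3b, Isg20, Ifitm3 and Phf11b, and 11 in the other macrophages; the medians were 0.947 and 0.796. Ifitm3, a membrane protein that blocks viral entry, stood at 4848 CPM in WT members and 3139 in KO members, and at 2262 and 1473 in other macrophages. Of 10 GBP and IRG genes, 0 were lower in KO members and 3 in other KO macrophages, with medians of 0.940 and 0.698. Members of both libraries were chosen by 1 cut on a score of interferon genes, so nothing is read from medians near 1.

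At matched score the genes did not all agree. Among members scoring from the cut to 30, Isg15 was at 2009 CPM in WT and 1507 in KO, a ratio of 0.750 [0.720 to 0.782], and among those at 60 or above 4650.3 and 3341, a ratio of 0.719 [0.668 to 0.772]. Irf7 had ratios of 0.657, 0.735 and 0.739 in the lower, middle and upper range, and Ifitm3 0.652, 0.695 and 0.566. In contrast Ifih1 had ratios of 1.35 [1.17 to 1.56], 1.61 [1.35 to 1.91] and 1.76 [1.39 to 2.21], and Slfn5 1.23, 1.28 and 1.51. Isg15, Irf7 and Ifitm3 were therefore lower, and Ifih1 and Slfn5 higher, in KO than in WT members of like score.

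Of 10 compared genes of the inflammatory monocyte list, 6 were at least 1.5-fold lower in KO than in WT members and 0 higher. Of all genes compared, 2.04% were lower and 5.51% higher. In the other macrophages 5 of the same 10 were lower and 2 higher, against 0.904% and 2.81% of all genes. The lower level of these genes in KO was thus not particular to members. The gene furthest below WT in KO members was the long noncoding RNA AC160336.1 (chromosome 14, 44544055 to 44637201, minus strand). It stood at 352 CPM in WT and 3.31 CPM in KO members and at 369 and 4.03 CPM in other macrophages. In ambient RNA it stood at 401 CPM in WT and 4.72 CPM in KO, so the difference was not particular to members. Plac8, a monocyte gene, stood at 896 CPM in WT members, 344 in other WT macrophages, 301 in KO members and 108 in other KO macrophages. Ly6c2 stood at 541, 199, 199 and 84.3 CPM. Both were thus higher in members than in other macrophages of their own library, and lower in KO on either side. Wfdc17 (2524 and 1234 CPM in WT and KO members), AW112010 (677 and 380), Ly6a (1567 and 902), Ccl6 (507 and 298), Ifi208 (105 and 54.4), Anxa1 (187 and 101), Il3ra (60.3 and 31.0), Cd38 (74.4 and 39.7) and Ccl2 completed the 12. In the other macrophages the ratios of Ccl2, Anxa1 and Il3ra were 1.05, 1.01 and 0.701, inside the 1.5-fold limits, while the remaining 9 were past them.

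Higher in KO members were Fcrls, at 211 CPM in WT and 433 in KO, Cx3cr1, the fractalkine receptor (114 and 226), and F13a1, a transglutaminase (172 and 313). Their ratios in other macrophages were 1.999, 1.55 and 2.20. The immediate early genes Egr1 (238 and 453 CPM) and Fosb (160 and 304) both had a ratio of 1.90 in members and of 1.42 and 1.44 in other macrophages; dissociation induces both. Lyz1 (16.7 and 62.5 CPM) had the highest ratio, 3.75 [2.98 to 4.73], of which 3 KO members held 38.9% of the UMIs; without the 3 members of each library with most it was 2.74. Ubb-ps, a pseudogene that can share reads with its parent, Camk1d and Hbegf had ratios from 1.93 to 2.64. Cxcl1, Col1a1 and Col3a1 were also among the 12, and the collagens stood at 1317 and 1210 CPM in WT and 2628 and 2251 CPM in KO ambient RNA, far above their 50.9 to 140 CPM in members. Their part from ambient RNA was not tested.

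**Figure D5:**
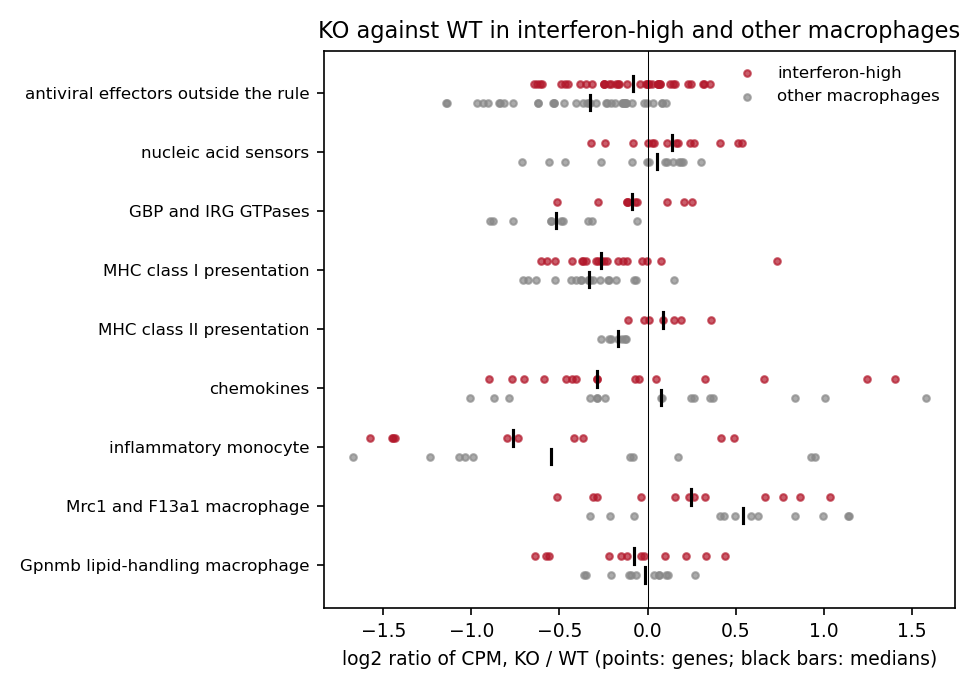
Log2 ratio of CPM, KO over WT, of the genes of 9 lists in interferon-high (red) and other macrophages (grey); black bars are list medians. Antiviral and GBP medians lie nearer 0 in interferon-high cells, and the median of the inflammatory monocyte genes is the lowest of the 9 in both.

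Genes of lipid and lysosome handling tended to be lower in members than in other macrophages of both libraries. All 12 compared genes of the Gpnmb list had ratios below 1. Their medians were 0.738 in WT and 0.713 in KO, where those of all genes compared were 0.946 and 0.934. At least 1.5-fold lower were 4 in WT, 5 in KO and 2 in both, against 3.69%, 5.77% and 1.94% of all genes compared. Gpnmb stood at 630 CPM in WT members, 1100.2 in other WT macrophages, 567 in KO members and 1031 in other KO macrophages. Fabp5, a fatty acid carrier, stood at 1524, 2942, 1633 and 2553 CPM, and Atp6v0d2, a proton pump subunit, at 29.7, 69.6, 17.1 and 54.8 CPM. Slc7a11, a cystine transporter, and Il7r were among the 10 lowest as well. The rest of the 10 were Ifi27 and 6 matrix genes, Mgp, Dcn, Col1a2, Col1a1, Col3a1 and Sparc, whose ambient levels in the WT library were 629 to 2552 CPM. Setdb1 stood at 16.4 CPM in WT members, 16.4 in other WT macrophages, 17.4 in KO members and 20.4 in other KO macrophages, from 120 and 58 UMIs in members. Reads near the 3′ end may lie outside the deleted part, so this does not check the deletion.

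Other cell types of the same libraries were scored the same way. Of 672 WT cells with at least 3 UMIs of Cdh5, an endothelial cadherin, 87 (12.9% [10.5 to 15.7]) passed the same cut, and of 630 KO cells 43 (6.83% [4.98 to 9.08]). Of 297 WT and 209 KO cells with Pdgfra, 5 (1.68%) and 2 (0.957%) passed, and of 454 WT and 160 KO cells with Cdh15, 7 (1.54%) and 0 passed. That 0 of 160 allows up to 1.88% by a floor of 3 cells and up to 2.28% by the exact interval. Endothelial cells and macrophages were the classes with sizeable shares past the cut, and the WT share was above the KO share in each of the classes listed.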

How the data were processed

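Per the labels' protocols, injured muscle was dissociated with enzymes, cells were sorted and 10x Genomics libraries were made. GRCm38, STAR 2.7.8a, STARsolo 2.7.9a and Seurat 4.0.1 appear in the submitters' processing notes; the annotation release and the counting of shared or antisense reads are not given there, so near-identical members of the Ifit, Oas1, Tgtp, Ccl and H2 families are uncertain. The authors deposited raw UMI counts for each gene and barcode, in whole numbers and with barcodes down to 1 UMI kept: 55487 genes, 2821644 WT and 3331422 KO barcodes, 121703522 and 138667420 UMIs.

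Cells were chosen as the report states. No doublet caller was run; the marker limits and alternatives with at most 30000 UMIs stand in for it. Counts were summed over members and over other macrophages of each library (Python 3.11.15, numpy 2.4.6, scipy 1.17.1, pandas 2.3.3) and divided by the summed UMIs (CPM). Ratios carry conditional binomial intervals, shares exact Clopper-Pearson intervals. Past 1.5-fold among genes of at least 10 CPM counted as higher or lower. Counts were simulated at these depths over 6971 genes. For KO against WT members, 100 of 100 genes raised 2-fold and 94 of 100 lowered to 0.5-fold were given back. Of the unchanged genes, 86 also passed. The simulation held counting error alone, with no spread between cells, animals or libraries, so 86 is not the number of false calls in the data.

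The cells and gene lists were chosen with earlier results of these data known. Named genes are the rule genes; the 20 highest and 10 lowest between members and others; the 12 highest and 12 lowest between genotypes, by the interval bound nearest 1, at 50 CPM or more; up to 8 of each of 33 lists by level, or any of a list with under 10 detected genes; and the 10 most like the score. Mitochondrial, ribosomal, haemoglobin, immunoglobulin and sex-linked marker genes and unnamed gene models were left out of rankings. Cgas, Sting1, Phf11b, Tgtp1, Tgtp2, Cxcl3, Tap1, Il15, Tlr7 and Cd3e were named after their values were seen. Gene positions are GENCODE M21 (GRCm38), matched for 55227 of 55487 identifiers; promoters are RefSeq GRCm38.p6. A result on 1 gene is not reported here.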

Additional observations from a re-analysis of the deposited data

Results flagged for a closer look

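In 2 genes of at least 50 CPM in some group the ratio of members to other macrophages went past 1.5-fold in opposite directions in the libraries; the difference was not tested. Lyz1, a lysozyme, had a ratio of 0.4145 in WT and 1.547 in KO, and 0.9539 in KO without the 3 members that held 38.9% of its KO member UMIs. Acta2, smooth muscle actin, had a ratio of 1.717 in WT and 0.2725 in KO. In WT, 3 members held 228 of its 311 member UMIs, and without them the WT ratio was 0.463, below 1 as in KO (0.227 without 3 members).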

How the results depend on the processing

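The KO to WT ratio of the share of interferon-high cells (0.434) was 1.002 when the top 12% was taken within each library, which fixes equal shares by construction, and 0.5096 with a score of Rsad2, Mx1 and Cmpk2 alone; the other 9 alternatives gave 0.380 to 0.468, among them 0.446 on cells thinned to 5000 UMIs. Counts past 1.5-fold followed the number of genes compared. With no filter but 20 UMIs, 1190 genes were higher in WT and 1272 in KO members than in other macrophages, and 1036 were higher and 688 lower in KO than in WT members. With a filter of 50 CPM these were 142, 133, 45 and 30. With 5 added to each CPM, 161 were higher and 76 lower in KO than in WT members. With the top 6% these were 686 and 293, and with the top 20% 79 were lower. Of single genes, the ratio of Ccl5 between KO and WT members (0.616) was 1.062, 1.204 and 1.109 with the top 20%, thinned cells and the score of Rsad2, Mx1 and Cmpk2; that of Lyz1 in KO (1.547) was 0.9842 with the top 6% and 0.9539 without the 3 members of each library that hold most of its UMIs, and that of Cxcl9 in KO (4.15) was 0.6818 without them. The alternative without 3 members, and the level filter read in other macrophages alone, were chosen after seeing the data. Of 5520 values of single genes and list medians under the alternatives, 4240 stayed within the gene's interval or, for a median, within 1.5 times. The cause of the shifts in Ccl5 was not tested. No paired analysis was possible because each group has 1 library, and for the same reason no library could be left out. With 286 KO members, ratios of scarce genes are imprecise, as the interval of Ifnb1 in KO (1.06 to 7.82) shows.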
